A study of Mus musculus with 3 samples.

Results

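Wnt signalling genes were followed in mouse embryoid bodies, clumps of embryonic stem cells that differentiate while floating in the medium, after 10 days of culture without LIF, the cytokine that keeps such stem cells self-renewing. The set comprised every gene on the array whose symbol names a Wnt ligand, an R-spondin, a Frizzled receptor, Lrp5 or Lrp6, an Sfrp, Frzb, Wif1, or a member of the Dkk family. That gave 46 genes with 54 probes, of 30119 genes with 39429 probes on the array. Of the 46, 33 genes were bright enough and had an unflagged value on every array, and were tested, among 19665 tested genes in all.

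The mutant embryoid bodies were of the genotype Dido3deltaCT+HADidoNT, in which the Dido3 protein lacks part of its C-terminal end and an HA-tagged N-terminal Dido region, shared by the isoforms and holding the PHD domain, is overexpressed. The wild-type controls carried neither. Because both changes were present in all mutant samples, their effects cannot be told apart, and whether the mutant line was a single clone is not given in the sources used here. There were 3 biological replicates of each genotype, and the RNAs were hybridised as 3 pairs, 1 mutant and 1 wild-type RNA on each 2-colour array. Arrays 1 and 3 carried the mutant RNA in Cy3, whereas array 2 carried it in Cy5, which means that on array 2 the dye and the replicate cannot be told apart. Unless stated otherwise, values are log2 mutant over wild type (above 0 where the mutant was higher), as mean ± SD over n = 3 arrays. Levels are normalised intensities of a probe in 1 channel, which can be compared between samples but not between genes. Whether mutant and wild-type levels overlap is given as description only. How often they do not overlap was not counted over all tested genes.

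Wnt proteins are lipid-modified secreted ligands that bind Frizzled receptors. With the co-receptors Lrp5 and Lrp6 they stabilise beta-catenin, which then acts with TCF and LEF factors on target genes, while ligands such as Wnt5a and Wnt11 are known mainly for signalling that does not use beta-catenin. R-spondins raise the amount of Frizzled on the cell surface. Sfrp proteins, Frzb and Wif1 bind Wnt ligands outside the cell, and Dkk1 and Dkk2 bind Lrp5 and Lrp6. In the early mouse embryo these signals pattern the primitive streak, the mesoderm and the neural tube.

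Some members had more than 1 probe, and some probes resemble those of a related gene, so the 60-base probes that bear on how to read the values are shown first, at the mm9 positions of the array files. The Lrp6 probe lies at chr6:134404723-134404782 on the minus strand, and is the dimmer of the 2 Lrp6 probes. The Wnt8b probe lies at chr19:44585759-44585818 on the plus strand and was too dim for the test. The Fzd2 probe at chr11:102467613-102467672 and the Fzd7 probe at chr1:59541367-59541426, both on the plus strand, target stretches of these related receptors that overlap by 50 bases when aligned. Capitals in this pair mark the 42 of those 50 bases, or 84%, that are identical.
Lrp6: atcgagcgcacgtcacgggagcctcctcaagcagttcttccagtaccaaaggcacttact
Wnt8b: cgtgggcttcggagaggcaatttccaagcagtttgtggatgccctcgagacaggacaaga
Fzd2: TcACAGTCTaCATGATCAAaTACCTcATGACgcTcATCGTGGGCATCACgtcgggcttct
Fzd7: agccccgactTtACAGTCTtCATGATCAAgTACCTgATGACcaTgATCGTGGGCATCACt
Because of this likeness, Fzd2 and Fzd7 values are given below for both probes of each gene. Cross-hybridisation between them was not tested.

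The promoters of 3 members are shown from the RefSeq table (GRCm38.p6). Each is the 250 bases before the start site, 5′ to 3′ on the gene's strand. They are examples, and members with larger ratios than Wnt11, such as Wnt8b and Wnt5b, are not shown. All 3 genes are on the plus strand. Dkk2 is at chr3:132085042-132085291, Sfrp2 at chr3:83766071-83766320 and the first Wnt11 start site at chr7:98834862-98835111. Capitals in Wnt11 mark ATCAAAG, the reverse complement of the TCF/LEF core CTTTGAT, 51 bases before the start.
Dkk2: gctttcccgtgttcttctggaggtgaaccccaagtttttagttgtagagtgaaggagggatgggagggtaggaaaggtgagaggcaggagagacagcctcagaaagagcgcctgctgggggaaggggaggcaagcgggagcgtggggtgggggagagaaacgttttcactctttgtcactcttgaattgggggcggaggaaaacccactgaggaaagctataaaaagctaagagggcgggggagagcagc
Sfrp2: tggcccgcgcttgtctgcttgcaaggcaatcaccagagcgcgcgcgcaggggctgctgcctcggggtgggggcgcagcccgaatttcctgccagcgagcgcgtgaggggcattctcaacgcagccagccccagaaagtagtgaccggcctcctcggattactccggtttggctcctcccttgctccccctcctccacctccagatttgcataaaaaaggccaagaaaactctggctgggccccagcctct
Wnt11: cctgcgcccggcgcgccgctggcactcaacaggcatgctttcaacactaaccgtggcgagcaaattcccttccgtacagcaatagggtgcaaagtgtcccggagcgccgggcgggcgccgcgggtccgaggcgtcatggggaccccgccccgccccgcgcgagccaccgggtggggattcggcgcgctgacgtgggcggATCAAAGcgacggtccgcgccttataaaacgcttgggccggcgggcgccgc
The letters CTTTGAT and CTTTGTT were searched on both strands of 300-base windows, from 250 bases before to 50 after the start. They were found in 5 of 33 member windows, 15.2%, which belong to 30 matched member genes. Of all 32851 RefSeq windows, 3066, or 9.33%, held them. The 5 genes were Dkk1, Fzd7, Wnt11, Wnt3 and Wnt5b. Members without a window, among them Wnt5a, Lrp6, Rspo2, Wnt7b and Fzd3, were not searched. A match is only a run of letters, and none of the data here bears on binding.

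Whether the labels run the same way on all arrays was checked on the targeted gene with 4 Dido1 probes on chromosome 2 (mm9). The probe at 180415861-180415920 was lower in the mutant by a log2 of -3.60 ± 0.17 (adjusted p = 0.031 in limma, with probes tested singly). The probes at 180405604-180405663 and 180419747-180419806 were higher, at 3.03 ± 0.34 and 2.35 ± 0.40 (adjusted p = 0.031 and 0.0341 in limma). The probe at 180393086-180393145 was at -0.54 ± 0.93. Which of these probes lie in the deleted or the overexpressed part is not given in the sources used here. The probes that passed therefore show that the arrays run the same way, but not which genotype each label names. The mutant RNA lit 65.7% to 74.0% of probes well above background, and the wild-type RNA 64.0% to 75.2%. Log2 ratios over all genes correlated between arrays 1 and 3 at r = 0.794, between arrays 1 and 2 at 0.377 and between arrays 2 and 3 at 0.193, over genes, which are not independent replicates. Array 2 therefore stands apart from the other two, and members with the largest ratios are given sample by sample.

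Wnt5a rose in the mutant and was the 1 member of 33 that passed the test, a limma fit over all 19665 genes with Benjamini-Hochberg adjustment at 0.05. Over all tested genes 1.65% were called, 1.27% higher and 0.386% lower, so 1 of 33 members is close to this background. At an unadjusted p under 0.05 there were 12 of 33 members, 6 higher and 6 lower, against 19.9% of all genes. At least 2-fold in one direction on every array were 3 of 33 members, against 4.18% of all genes. Both of these member shares are above those of all genes, and the differences were not tested. All 3 of these members, Wnt5a, Lrp6 and Dkk2, were higher, against 3.1% of all genes. No member was at least 2-fold lower on every array, against 1.08% of all genes. Wnt5a and Dkk2 entered the test through their mutant level alone. With a filter on both genotypes 28 members were tested, and only Lrp6 was at least 2-fold in one direction on every array. By direction alone, 9 members were higher on every array and 8 lower, against 22.5% and 19.1% of all genes. The median of the member means was -0.15, against -0.01 for all genes. Leaving out array 1 or array 3 ended the Wnt5a call (adjusted p = 0.212 and 0.13 in limma), as did no limit on the local background (0.299), no filter on dim probes (0.0559) and the authors' deposited ratios (0.0599). With a filter on both genotypes Wnt5a was not tested, and Lrp6 was the 1 called member. Leaving out array 2 raised the number of called members to 15, 5 higher and 10 lower, beside 5082 called genes in all, with the mutant in Cy3 on both arrays left. The 5 higher ones were then Wnt5a, Lrp6, Dkk2, Wnt11 and Fzd7, and the 10 lower ones Rspo2, Sfrp2, Wnt8b, Wnt7b, Wnt5b, Wnt1, Fzd3, Fzd8, Fzd9 and Fzd10. Without array 2, Lrp6 was at 2.25, Dkk2 at 2.33, Rspo2 at -4.77, Wnt7b at -2.49 and Fzd3 at -1.43 (adjusted p of 0.0104, 0.0403, 0.0126, 0.0111 and 0.0145 in limma, in that order).

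**Figure D1:**
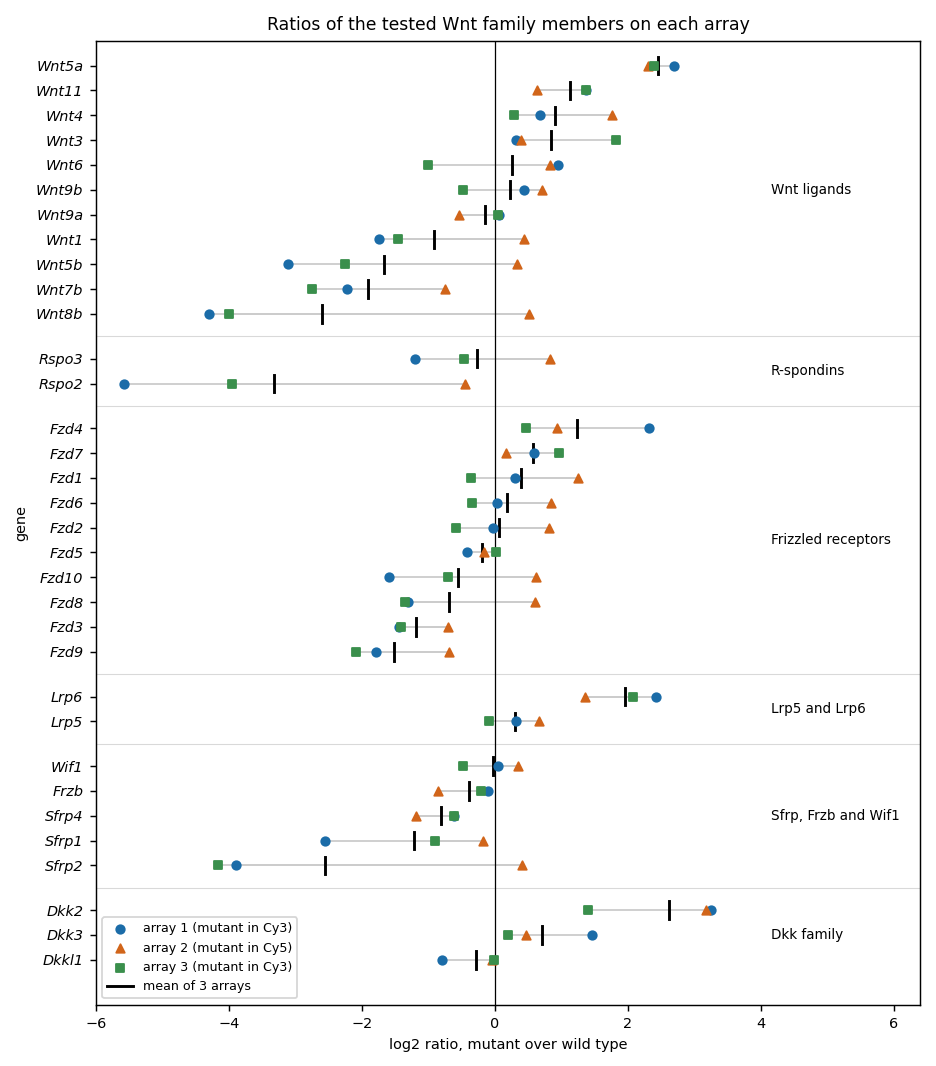
Log2 mutant over wild type (horizontal axis) for the 33 tested members (vertical axis), grouped by role, with 1 point per array and a bar at the mean of 3 arrays. Wnt5a, Lrp6 and Dkk2 lie above 1 on every array, while Rspo2, Sfrp2 and Wnt8b lie at -3.89 or lower on arrays 1 and 3 and between -0.45 and 0.51 on array 2.

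Among the 19 Wnt ligands, 11 were tested, 4 were higher on every array and 1 lower. Wnt5a, a ligand of mesenchyme and the posterior embryo, had levels of 717, 531 and 608 in mutant samples, against 111, 108 and 116 in wild-type samples. All 3 mutant samples stood well above all 3 wild-type samples, where the probe was well above background on 2 of 3 arrays. Its ratio was 2.46 ± 0.21 (adjusted p = 0.0354 in limma), from 2.70, 2.30 and 2.39 on arrays 1, 2 and 3. The gene entered the test through its mutant level alone. Its ratio moved with the processing, from 1.71 to 4.00 over 17 alternatives, so the size is poorly fixed. The probe lies on chromosome 14 at 29336664-29336723 (mm9).

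Wnt11, a ligand of cardiac and gastrulation mesoderm, had levels of 3358, 2019 and 2071 in mutant samples, against 1301, 1300.0 and 798 in wild-type samples. The groups did not overlap, and the ratio was 1.13 ± 0.43 (adjusted p = 0.0941 in limma), which did not pass. Wnt4, which acts in kidney and gonad development, had a ratio of 0.91 ± 0.76 on its brighter probe and 0.23 ± 0.44 on the other. The dimmer Wnt4 probe was at 0.71, 0.14 and -0.16 on arrays 1, 2 and 3. Thus the 2 probes differ in size and, on array 3, in sign. Wnt3, needed to form the primitive streak, was at 0.84 ± 0.85, with most of it from array 3, where the ratio was 1.82 against 0.32 and 0.39 on the others. Neither passed.

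Wnt7b, a ligand of epithelia and the developing nervous system, was the ligand with the smallest p among those lower in the mutant. Its levels were 203, 279 and 185 in mutant samples, against 949, 469 and 1250.2 in wild-type samples, with no overlap. The ratio was -1.91 ± 1.04 (adjusted p = 0.104 in limma), and it was -2.22, -0.75 and -2.76 on arrays 1, 2 and 3. Wnt8b, a ligand of the forebrain, had levels of 111, 204 and 89.98 in mutant samples, against 2189, 144 and 1446 in wild-type samples. The groups overlapped through wild-type sample 2 alone, which stood at the mutant level, and the ratio was -2.60 ± 2.70 (adjusted p = 0.262 in limma). Wnt8b entered the test through its wild-type level alone, as the mutant was well above background on 2 of 3 arrays. The dimmer Wnt8b probe printed above gave -2.71, 0.16 and -2.59 on arrays 1, 2 and 3, the same pattern. Wnt5b had levels of 291, 782 and 570 in mutant samples, against 2509, 621 and 2708 in wild-type samples, and wild-type sample 2 was again the low one, inside the mutant range. Its ratio was -1.67 ± 1.79 (adjusted p = 0.281 in limma). Values of Wnt8b and Wnt5b in every sample were chosen for printing after they were seen. Wnt1, a signal of the midbrain and dorsal neural tube, was at -1.75, 0.44 and -1.45 on arrays 1, 2 and 3, and overlapped.

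**Figure D2:**
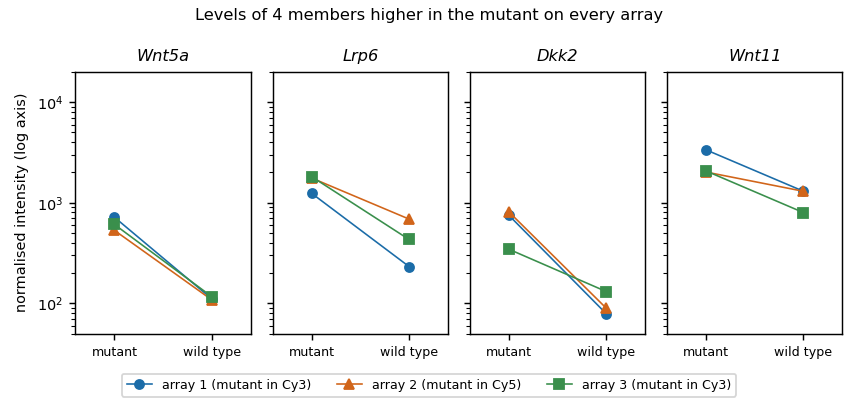
Normalised intensity (log axis) of Wnt5a, Lrp6, Dkk2 and Wnt11 in mutant and wild-type samples, with lines joining the 2 RNAs of an array. Every mutant sample lies above the wild-type sample of its array.

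The ligands Wnt6, Wnt9a and Wnt9b were at 0.25 ± 1.09, -0.15 ± 0.34 and 0.22 ± 0.62. They changed sign between arrays, and the values did not pass. The remaining 8 ligands, Wnt2, Wnt2b, Wnt3a, Wnt7a, Wnt8a, Wnt10a, Wnt10b and Wnt16, had no genotype in which they were well above background on all 3 arrays and were not tested.

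R-spondin 2 had the lowest mean of the set. Its levels were 155, 289 and 209 in mutant samples, against 7410, 395 and 3224 in wild-type samples. The mutant samples were alike within 1.87-fold, whereas the wild-type samples spanned 18.8-fold, with sample 2 closest to the mutant level, and the groups did not overlap. The ratio was -3.33 ± 2.62 (adjusted p = 0.171 in limma), from -5.58, -0.45 and -3.95 on arrays 1, 2 and 3, and did not pass. Rspo3 was at -0.27 ± 1.03, from -1.20, 0.83 and -0.46 on arrays 1, 2 and 3. Rspo1 had 1 flagged spot on array 1 and was not tested, and with that spot kept its values were -2.76, 0.45 and -2.76 on arrays 1, 2 and 3. Rspo4 was too dim.

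All 10 Frizzled receptors were tested, and 2 were higher and 2 lower on every array. Fzd4, a receptor for Norrin and several Wnts, had levels of 1854, 1044 and 480 in mutant samples, against 373, 549 and 346 in wild-type samples. The groups overlapped at mutant sample 3, and the ratio was 1.24 ± 0.96 (adjusted p = 0.193 in limma). Fzd7, the other receptor higher on every array, was at 0.58 ± 0.40 on its brighter probe and 0.25 ± 0.27 on the probe printed above. Fzd3, a receptor of axon guidance and planar polarity, had levels of 576, 709 and 629 in mutant samples, against 1572, 1161 and 1671 in wild-type samples. These groups did not overlap, and the ratio of -1.19 ± 0.41 was at an adjusted p of 0.0845 in limma. Fzd9 had levels of 142, 152 and 134 in mutant samples, against 493, 246 and 568 in wild-type samples, also without overlap, at -1.52 ± 0.73 (adjusted p = 0.0954 in limma).

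Fzd8 and Fzd10, at -0.69 ± 1.12 and -0.56 ± 1.11, were lower on arrays 1 and 3 and higher on array 2. Fzd2 was at 0.07 ± 0.71 on the probe printed above and -0.67 ± 0.22 on the other, whose adjusted p was 0.152 in limma with probes tested singly. Fzd1, Fzd5 and Fzd6 were at 0.40 ± 0.80, -0.19 ± 0.21 and 0.18 ± 0.61, and none passed. On array 2 Fzd1 was at 1.24, against 0.30 and -0.35 on arrays 1 and 3.

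Lrp6, the co-receptor of beta-catenin signalling, had levels of 1240.2, 1762 and 1818 in mutant samples, against 232, 688 and 431 in wild-type samples. The groups did not overlap. Its ratio was 1.95 ± 0.54, a 3.86-fold higher level, at an adjusted p of 0.0517 in limma, just short of the threshold. Over 18 alternatives its ratio ran from 0.95 to 2.25, the lowest on its second probe when probes were tested singly. The adjusted p ran from 0.0104 to 0.275 in limma. Lrp6 was called in 7 of them, including the threshold of 0.1, at which its adjusted p stayed 0.0517. The brighter probe, also called when probes were tested singly, is not among these 7. The second Lrp6 probe, printed above, gave 719, 621 and 365 in mutant samples, against 320, 269 and 261 in wild-type samples, also without overlap and with the smaller ratio of 0.95 ± 0.41. Lrp5, its close relative, was at 0.30 ± 0.38 and did not pass.

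Among the secreted Wnt-binding antagonists, 5 of 6 were tested, 3 were lower on every array and none was higher on every array. Sfrp4 had the smallest p, with levels of 93.2, 103 and 162 in mutant samples, against 143, 233 and 248 in wild-type samples, and a ratio of -0.81 ± 0.33 (adjusted p = 0.142 in limma). The groups overlapped through mutant sample 3. Sfrp4 entered the test through its wild-type level alone, as the mutant was well above background on 2 of 3 arrays. Its ratio ran from -2.24 to -0.45 over 17 alternatives, so the size is poorly fixed. Sfrp2, which is made in the early neural plate and in mesenchyme, had levels of 229, 1023 and 627 in mutant samples, against 3393, 773 and 11279 in wild-type samples. Wild-type sample 2 was again the low one, and the ratio was -2.55 ± 2.56 (adjusted p = 0.251 in limma), with 0.41 on array 2. The Sfrp2 levels were likewise chosen for printing after they were seen. Sfrp1 was at -1.21 ± 1.22, from -2.56, -0.18 and -0.90 on arrays 1, 2 and 3. Frzb was at -0.39 ± 0.41 and Wif1 at -0.03 ± 0.42. Sfrp5 had 1 flagged spot on array 1, and with it kept the values were 0.09, -1.02 and 2.12 on arrays 1, 2 and 3.

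**Figure D3:**
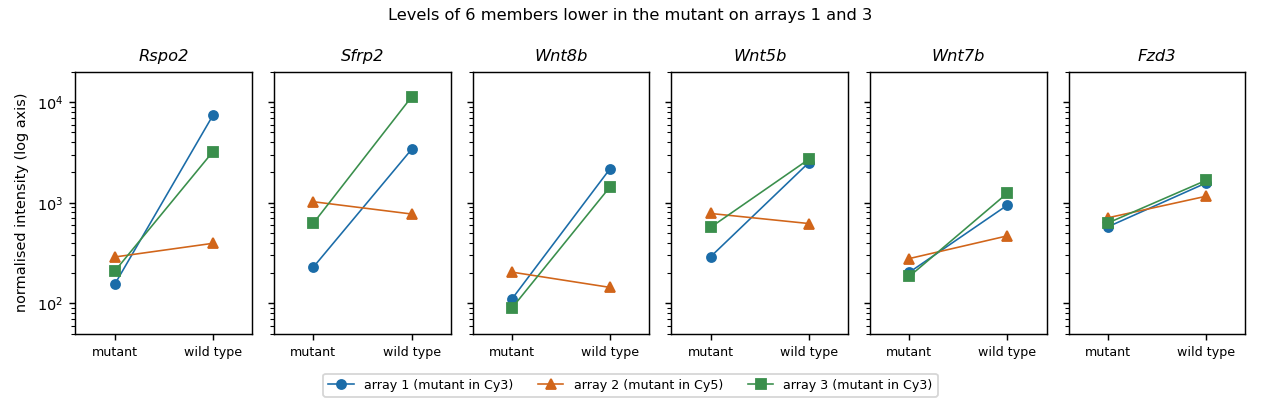
Normalised intensity (log axis) of Rspo2, Sfrp2, Wnt8b, Wnt5b, Wnt7b and Fzd3 in mutant and wild-type samples, with lines joining the 2 RNAs of an array. On array 2 the wild-type level lies near the mutant level for Rspo2, Sfrp2, Wnt8b and Wnt5b, and the mutant levels are lower than wild type on arrays 1 and 3 for all 6.

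Dkk2, a ligand of Lrp6 that can block or, in some settings, stimulate the pathway, was higher on every array. Its levels were 750.2, 812 and 345 in mutant samples, against 78.7, 89.4 and 131 in wild-type samples, where the probe was well above background on 1 of 3 arrays. The groups did not overlap, and the ratio was 2.61 ± 1.05, at an adjusted p of 0.063 in limma. Dkk2 also entered the test through its mutant level alone, and its ratio ran from 1.75 to 5.19 over 17 alternatives, so the size is poorly fixed. Dkk3 was at 0.71 ± 0.67. Dkkl1, which is named for its likeness to Dkk3 and is best known in germ cells, had levels of 1244, 1303 and 994 in mutant samples, against 2156, 1349 and 1003 in wild-type samples, and overlapped at -0.29 ± 0.44. Dkk1, the classical Lrp6 antagonist, had 1 flagged spot on array 2, and with it kept its values were -0.15, 1.27 and 1.42 on arrays 1, 2 and 3. Dkk4 was too dim.

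Neural cell markers were also lower on arrays 1 and 3, and less so on array 2, where Wnt8b, Sfrp2 and Wnt5b were slightly above 0. No test of likeness was run, and array 2 stands apart over all genes. Among 8 neural progenitor markers, 6 were lower on every array, and the medians were -2.74, -0.45 and -3.50 on arrays 1, 2 and 3. Their summed level was 2877 to 3206 in mutant samples, against 4103 to 24920 in wild-type samples. Such sums, here and below, are weighted to the brightest probes of a list and need not hold for each marker. Among 6 neuron markers 5 were lower on every array, with medians of -2.29, -0.55 and -3.12 and summed levels of 1254 to 2741 in mutant samples, against 2741 to 18256 in wild-type samples. None of these 14 markers was called. Over all tested genes 19.1% were lower on every array and 0.386% were called lower. In bulk RNA, fewer cells of a type and less RNA per cell cannot be told apart, and the part of these markers in the results for Rspo2, Sfrp2, Wnt8b, Wnt7b and Wnt5b was not tested.

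Beside Wnt5a, Dkk2, Lrp6 and Wnt11, markers of cardiac muscle and mesenchyme were higher. Of 6 cardiac markers 5 were higher on every array and 2, Tnnt2 and Hand1, were called, with medians of 1.39, 2.78 and 2.43 and summed levels of 17201 to 69135 in mutant samples, against 6379 to 7468 in wild-type samples. Of 5 tested mesenchyme markers, from a list of 6, 4 were higher on every array and Acta2 was called, with medians of 2.36, 2.23 and 1.32 and summed levels, over those 5, of 71236 to 141794 in mutant samples, against 18271 to 28425 in wild-type samples. Among 8 visceral endoderm markers 7 were higher on every array and Ttr was called, with medians of 3.40, 1.03 and 2.46 and summed levels of 335046 to 634123 in mutant samples, against 51154 to 177682 in wild-type samples. Of 4 endothelium markers 3 were higher on every array and Kdr was called, with summed levels of 4292 to 8330 in mutant samples, against 2302 to 2881 in wild-type samples. Over all tested genes 22.5% were higher on every array and 1.27% were called higher. The part of these markers in the results for Wnt5a, Dkk2, Lrp6 and Wnt11 was not tested. Markers of the primitive streak, where Wnt3 acts, had medians of -0.32, -0.38 and 0.90, and pluripotency markers -2.33, -2.24 and 0.91. Every marker on these lists was well above background on at least 1 array.

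**Figure D4:**
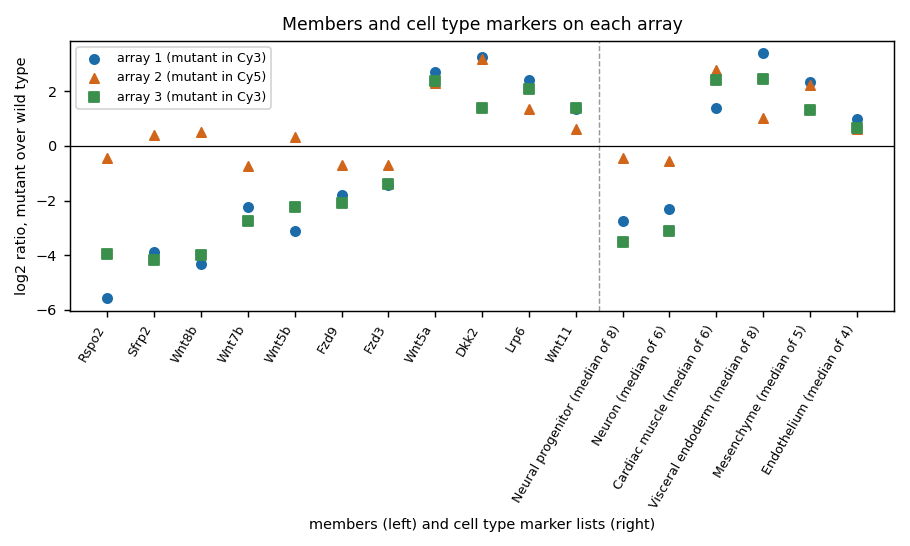
Log2 ratios of mutant over wild type on each array for 11 members (left of the dashed line) and medians of 6 cell type marker lists (right). Rspo2, Sfrp2, Wnt8b, Wnt7b and Wnt5b are lower on arrays 1 and 3 than on array 2, and so are the medians of both neural lists.

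Array 2 was opposite in sign to both other arrays in 9 of 33 members, 27.3%, against 38.4% of all 19665 genes tested. In 8 of the 9 members, and in 3799 of the 7555 such genes in all, it was higher while arrays 1 and 3 were lower. Over the 33 members the ratios of arrays 1 and 3 correlated at r = 0.899, those of arrays 1 and 2 at 0.565 and those of arrays 2 and 3 at 0.464, a description over genes that share the same RNA.

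Of 46 further genes of the pathway, 37 were tested and none was called in limma, against 1.65% of all genes. An unadjusted p under 0.05 was found for 7, against 19.9% of all genes. On every array 11 were higher and 6 lower, against 22.5% and 19.1% of all genes. Among those higher, Gsk3b, a kinase that marks beta-catenin for destruction, had levels of 3548, 2272 and 3508 in mutant samples, against 817, 494 and 1549 in wild-type samples, at 1.83 ± 0.57 (adjusted p = 0.056 in limma). Ror2, a receptor for Wnt5a, had levels of 4527, 5147 and 7103 in mutant samples, against 2280, 1153 and 2863 in wild-type samples, at 1.49 ± 0.60 (adjusted p = 0.0801 in limma). The groups did not overlap for either gene. Ptk7, a planar polarity co-receptor, was at 0.67 ± 0.28.

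The lower genes with the smallest p were Shisa2, which retains Frizzled and FGF receptors inside the cell, at -0.85 ± 0.47, the planar polarity gene Vangl2 at -0.94 ± 0.66 and the beta-catenin cofactor Bcl9 at -0.61 ± 0.46, and none passed. Feedback targets of beta-catenin signalling gave no common direction. Axin2 was at -0.03 ± 0.55, Nkd1 at -0.81 ± 0.96 and Sp5 at -0.37 ± 1.30, and each changed sign between arrays.

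**Figure D5:**
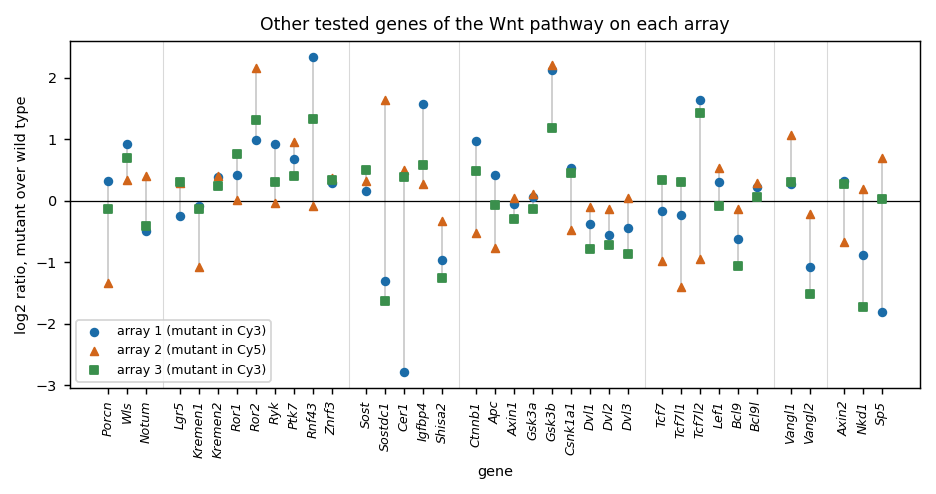
Log2 ratios of mutant over wild type on each array for the 37 tested further genes of the pathway, in order of role from secretion to feedback targets. Gsk3b and Ror2 lie at 0.99 or above on every array, and most others span 0.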

How the data were processed

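Total RNA of embryoid bodies was amplified, labelled with Cy3 or Cy5 and hybridised in pairs on Agilent 4x44K v2 mouse arrays, as the labels' protocols state. The deposited scanner files hold spot and background intensity and a log10 ratio of red over green, and per the file headers the software was Feature Extraction 10.7.3.1. The authors' deposited table holds log2 ratios; the submitters' processing notes name limma. Regressed on the scanner ratio, turned to log2 mutant over wild type, over 7636 bright spots, the table's columns had slopes of 0.917, 0.956 and 0.993, so they run the same way. Their medians were -0.01, 0.02 and -0.01, and their centring and background steps stay unknown.

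In R 4.3.3 with limma 3.58.1, spot mean and local background median were corrected with normexp (offset 50) and loess within arrays, control spots at weight 0. Local background was limited to 100 units, because earlier results of these data had shown that 25 spots of array 2, with background up to 75739, compress its ratios. The SD of its log2 ratios was 0.80 with the limit and 0.49 without, against 0.92 and 0.89 on arrays 1 and 3. Control and outlier spots were left out. Probes were kept if 1 genotype or both stood well above background on all 3 arrays and no array lacked a value. This left 25494 of 39429, and the brightest probe stood for a gene. No spot was saturated. Ratios were turned to mutant over wild type by the labelled dyes and tested against 0 (lmFit and eBayes, two-sided, Benjamini-Hochberg over 19665 genes), with 4.76 degrees of freedom, 2.76 of them prior. The number of arrays limits the precision. Levels are channel intensities after loess and Aquantile. Symbols came by accession for 27234 probes, by symbol for 3576, by synonym for 565 and from the file for 8054, through RefSeq (GRCm38.p6).

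The members, lists and rules were chosen with earlier results of these data known. By rule, full levels went to members called and to those at least 2-fold in one direction on every array. They also went to the member of smallest p in each direction of each family. Levels of Wnt11, Fzd9, Wnt8b, Wnt5b and Sfrp2 are printed outside this rule. Of further pathway genes, the 3 of smallest p in each direction are named, and levels are printed for Gsk3b and Ror2 only. Tested on simulated data for 19665 genes, the fit called 0 of 100 with a true log2 of 1 and 0 of 100 with a true log2 of 2, with 0 false calls, while 78% and 95% had an unadjusted p under 0.05. Only these genes were given a change there, whereas 325 genes were called in the data. The adjustment is stricter where few genes differ, so these counts do not show what the fit can call in the data. Alternatives were other background, scaling, filter and probe rules, a dye term, the authors' values and leaving out each array.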

Additional observations from a re-analysis of the deposited data

How the results depend on the processing

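The count of called genes, 325 of 19665, and of called members, 1 of 33, moved with the processing. With no limit on the local background 0 genes and 0 members passed in limma (3021 genes and 11 members at an unadjusted p under 0.05). With no filter on dim probes 0 and 0 passed (4831 and 12 unadjusted), and with the authors' deposited log2 ratios 0 and 0 (3838 and 11 unadjusted). With an offset of 16, 733 genes and 3 members passed, with the scanner log ratio 769 genes, and with probes tested singly 664 probes and 2 member probes. Median centring and scaling between arrays each gave 2 members. Lrp6 was called with an offset of 16, with median centring, with scaling, with the filter on both genotypes, on its brighter probe when probes were tested singly, with the dye term, without array 2 and at an adjusted p under 0.1. With a dye term, under which array 2 is fitted exactly, 2534 genes and 12 members passed (5 higher, 7 lower), and at an adjusted p under 0.1, 1352 and 6. Leaving out 1 array gave 0 to 5082 genes and 0 to 15 members, with 0 without array 1 or array 3 (1659 and 2370 genes unadjusted).

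Further pathway genes called numbered 0, but 1 at an offset of 16, 4 with a dye term, 2 at an adjusted p under 0.1 and 0 to 10 when leaving out 1 array. Members at least 2-fold in one direction on every array numbered 3, but 0 with no background limit, 1 with the filter on both genotypes, which removes Wnt5a and Dkk2, 2 with the authors' deposited ratios, without Dkk2, 4 with the scanner log ratio, with Fzd9, and 3 to 13 when leaving out 1 array. The Sfrp, Frzb and Wif1 median, -0.81, was -0.45 with no limit, -1.31 with the scanner log ratio, -1.21 with the filter on both genotypes and -0.90 to -0.54 when leaving out 1 array. The Lrp5 and Lrp6 median, 1.12, was 0.87 with the mean of a gene's probes and 0.88 with the authors' values. Wnt5a ranged from 1.71 to 4.00, higher in every alternative that held it, with an adjusted p of 0.0091 to 0.299 in limma. Keeping outlier spots, an alternative chosen after seeing the data, gave 310 genes and 1 member. Except where construction shows it, the cause was not tested. Each array's ratio is itself a paired comparison of 1 mutant with 1 wild-type RNA, so no further block was fitted.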
